A study of Mus musculus with 2 samples.

Results

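The EPO receptor, its kinase JAK2, the STAT5 factors and their feedback genes were described here as 10 genes: Epor, Jak2, Stat5a, Stat5b, Cish, Socs1, Socs2, Socs3, Pim1 and Sh2b3. They were chosen by name for their place in the pathway, by matching the deposited gene identifiers to symbols, and all 10 were found among 43346 gene rows. The cells were G1E-ER4, an immortalized mouse erythroid line in which Gata1 was restored, kept for 7 hours in 17beta-estradiol at 10 nM. G1E cells lack functional Gata1, and the ER4 line carries a GATA1 fusion protein whose estrogen receptor part responds to estradiol. The series held 2 polyA RNA-seq libraries of 1 group, labelled biological replicates 1 and 2, with 59610967 and 44689405 expected counts. Both cited the same biosample record. The spread between the libraries may therefore be technical. No untreated sample and no other time was analysed here, so no value is a change with estradiol.

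Erythropoietin binds a pair of receptor chains, which brings the JAK2 molecules held on their inner tails together. JAK2 then phosphorylates tyrosines of the receptor, STAT5 docks there and is phosphorylated in turn, and STAT5 dimers enter the nucleus and bind DNA at the motif TTCNNNGAA. Erythroid progenitors depend on this signal for survival. CIS and the SOCS proteins, whose genes STAT5 and related factors induce, bind the receptor or JAK2 and limit the signal, as does the adaptor LNK, the product of Sh2b3. Phosphorylation and protein amounts were not measured, so the values are the amounts of RNA for each part of the pathway.

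Markers of the erythroid line were present: 8 of 9 erythroid markers reached a TPM of 1 in both libraries, with a summed TPM of 22720 (replicate 1) and 15411 (replicate 2). The exception was Slc4a1, the red cell anion exchanger, at a TPM of 0.52 and 0.36. Gata1 was among the 8, at 1251 and 872. Its reads can come from the introduced GATA1 fusion, so it says little about the cell type. Of 22 markers of other cell types, 6 reached a TPM of 1 in both libraries: Itga2b, Gp1ba, Spi1, Cd68, Hdc and Lck. The 22 had a summed TPM of 96.4 and 95.5, and 5 were at 0 in both libraries. The endothelial markers Cdh5 and Pecam1 were among those at 0.

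Transcript abundance is given as TPM, a measure that is scaled to a common total and divides counts by the length open to sequencing, so that levels of different genes can be set side by side. Genes that reached a TPM of 1 in replicate 1 and in replicate 2 were called detected. Of the 10 genes, 9 were detected, where 38.3% of all 21474 protein-coding genes were. The exception was Socs3. The median level of the 10 genes was a TPM of 62.4, beside 20.8 over the 8219 protein-coding genes detected. Both medians count all transcripts and were not recomputed otherwise. By transcripts of at least 1000 bases alone, the means of Cish, Socs2 and Sh2b3 were lower, at 30.7, 34.5 and 66.5, so the 62.4 depends on short models. In bulk RNA, fewer cells with a transcript and less of it per cell cannot be told apart.

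**Figure D1:**
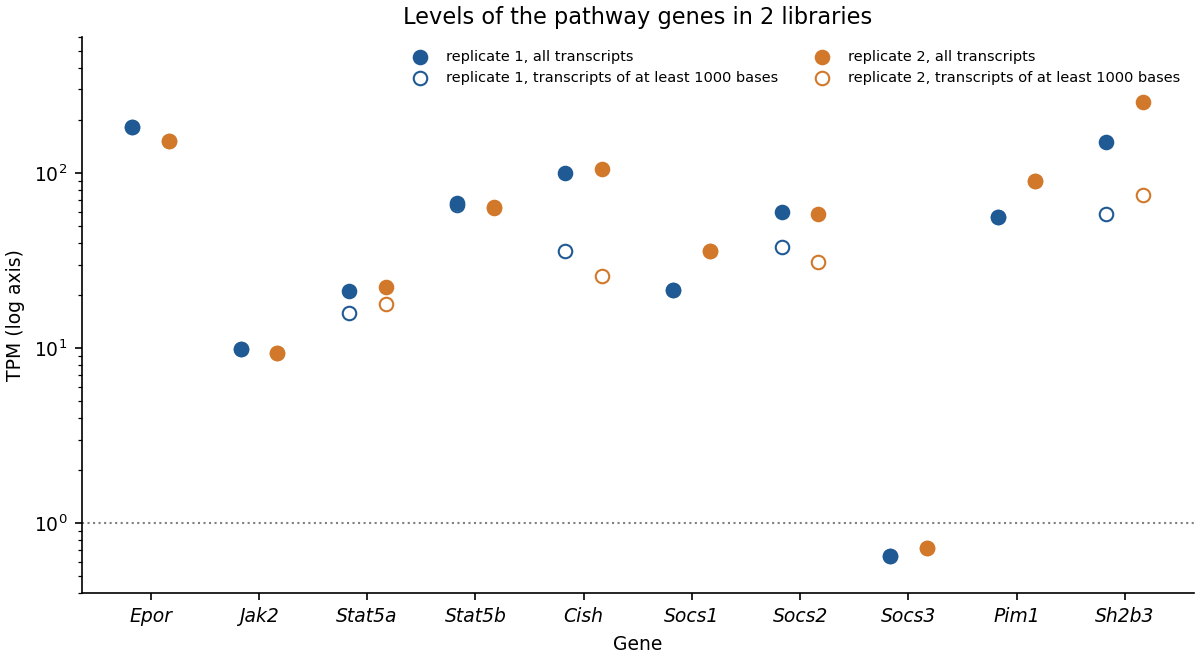
TPM on a log axis for each of the 10 genes, with replicate 1 in blue and replicate 2 in orange, from all transcripts of the gene (filled) and from transcripts of at least 1000 bases alone (open). Epor stands at 184 and 153 by either measure, Sh2b3 stands at 149.7 and 255 by all transcripts but at 58.4 and 74.6 by long ones, Cish at 100.5 and 105 but at 35.7 and 25.8, and Socs3 lies below the dotted line at a TPM of 1.

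The receptor gene was among the most abundant of the pathway. Epor (ENSMUSG00000006235, chromosome 9, 21958897 to 21963506, minus strand, GRCm38) stood at a TPM of 184 in replicate 1 and 153 in replicate 2, from 15594 and 9112 counts, a mean of 168 ± 21.8 (SD, n = 2). It ranked above 96.3% and 95.6% of protein-coding genes. Epor-201, of 1829 bases, was the only Epor transcript quantified, so no split of reads among transcripts could arise. Whether other Epor transcripts were present was not tested.

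The window of the Epor promoter is shown because GATA1, the factor that estradiol activates in this line, and KLF factors are known regulators of erythroid genes. It runs from 250 bases before to 50 bases after the RefSeq start site, chr9:21963527-21963826 on the minus strand of GRCm38.p6. Capitals mark a GATA motif (AGATAA, or with T as its first or G as its last base, on either strand) and CACCC, the core of KLF sites, also searched on both strands.
Epor promoter: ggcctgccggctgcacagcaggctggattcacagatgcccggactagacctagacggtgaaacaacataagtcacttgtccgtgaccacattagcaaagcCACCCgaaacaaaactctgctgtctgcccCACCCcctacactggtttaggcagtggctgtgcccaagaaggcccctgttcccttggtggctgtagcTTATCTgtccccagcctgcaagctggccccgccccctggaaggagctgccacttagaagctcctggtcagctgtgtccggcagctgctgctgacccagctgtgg
The GATA motif, on the opposite strand, began at position -54 from the start site, and the CACCC motifs began at -150 and -121. Of 32851 RefSeq windows of the same length, 29.8% held a GATA motif, 57.5% held CACCC and 14.9% held both. Matches are letters only, and binding was not measured.

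Jak2, the kinase that the receptor needs, was the least abundant of the detected genes. Jak2 (ENSMUSG00000024789, chromosome 19, 29251828 to 29313080, plus strand) stood at a TPM of 9.87 and 9.38, from 2439 and 1620 counts, a mean of 9.63 ± 0.346 (SD, n = 2). The libraries were close to each other. The level lay above 74.1% and 74.9% of all protein-coding genes, but below the median TPM of 20.8 over the detected ones. Nearly all of it, 99.9% and 100%, was the 5030-base transcript Jak2-202. Per length there were 18.6 Epor transcripts for each Jak2 transcript in replicate 1 and 16.3 in replicate 2.

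Of the paired STAT5 genes, Stat5b was the more abundant. Stat5b (ENSMUSG00000020919, chromosome 11, 100780731 to 100850724, minus strand) stood at a TPM of 67.3 and 63.8, from 16438 and 10979 counts, a mean of 65.5 ± 2.49 (SD, n = 2). Stat5a (ENSMUSG00000004043, chromosome 11, 100859351 to 100885169, plus strand) stood at 21.3 and 22.3, from 2949 and 2276 counts, a mean of 21.8 ± 0.700 (SD, n = 2). The ranges did not overlap, and Stat5a made up 24.0% and 25.9% of the TPM of the pair. Both encode factors that the receptor activates, and the genes are neighbours that point away from each other across 8626 bases.

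The STAT5 genes are near-identical copies in part, so the split of reads between them is an estimate. The coding sequences of Stat5a-203 and Stat5b-201 were identical at 90.9% of 2291 aligned bases. Their longest shared run was 324 bases. Of all 50-base windows of the Stat5a coding sequence 26.0% also occurred in Stat5b, and of all 100-base windows 11.6%. Both ends of that run are shown, since a fragment inside it could belong to either gene. Capitals are the first and last 30 bases of the run, and lower case the 15 bases outside it, in GENCODE M21 transcripts on GRCm38.
Stat5a-203 left edge: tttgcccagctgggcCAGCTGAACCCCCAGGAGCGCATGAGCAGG
Stat5b-201 left edge: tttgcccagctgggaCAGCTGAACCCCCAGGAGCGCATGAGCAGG
Stat5a-203 right edge: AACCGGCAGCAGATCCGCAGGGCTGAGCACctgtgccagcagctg
Stat5b-201 right edge: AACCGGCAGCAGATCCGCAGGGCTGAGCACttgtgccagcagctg
The run ends at a single base that differs on either side. The authors' posterior SD of the count was 14.1 and 14.6 counts for each of the STAT5 genes and 0 for every other gene of the 10 but Socs2, where it was 0.18 and 0.26. Against 2949 and 2276 Stat5a counts it was small. Stat5a also overlaps 72 bases of Stat3 on the other strand, and whether counting used strand was not stated.

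The transcripts of the STAT5 genes also differed in how clear they were. Stat5b-201 carried 98.0% and 98.9% of the Stat5b TPM. In Stat5a, the full-length Stat5a-203 (3605 bases) carried 53.4% and 65.3%, Stat5a-202 (3738 bases) 19.3% and 12.3%, and Stat5a-206, a fragment of 617 bases whose annotated end was not found, 25.1% and 19.9%. The fragment held 4.24% and 3.26% of the Stat5a counts. With transcripts under 1000 bases left out, Stat5a stood at a TPM of 16.0 and 17.8, and Stat5b at 66.0 and 63.1.

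The feedback genes Cish, Socs1, Socs2 and Socs3 spanned a wide range. Cish, which encodes the CIS protein that occupies STAT5 docking sites on the receptor, was the most abundant of them by TPM. Cish (ENSMUSG00000032578, chromosome 9, 107296026 to 107302784, plus strand) stood at 100.5 in replicate 1 and 105 in replicate 2, from 5622 and 3149 counts, a mean of 103 ± 2.99 (SD, n = 2). It made up 55.1% and 52.4% of the TPM of the 4 feedback genes.

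Socs2 (ENSMUSG00000020027, chromosome 10, 95385362 to 95417180, minus strand), best known as a brake on growth hormone signalling, stood at a TPM of 59.85 and 58.52, from 4450 and 2697 counts, a mean of 59.2 ± 0.940 (SD, n = 2). Socs1 (ENSMUSG00000038037, chromosome 16, 10782240 to 10785536, minus strand), whose product inhibits the kinase domain of JAKs, stood at 21.5 and 35.9, a mean of 28.7 ± 10.2 (SD, n = 2). It was one of the genes whose libraries lay far apart, with the higher value in replicate 2. Its 1160 and 1365 counts were all given to Socs1-201, the only Socs1 transcript quantified.

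Socs3 was at the edge of detection. Socs3 (ENSMUSG00000053113, chromosome 11, 117966079 to 117970047, minus strand), another inhibitor of JAK kinases, stood at a TPM of 0.65 and 0.72. These came from 79 counts (exact 95% Poisson interval 62.5 to 98.5) and 61 counts (46.7 to 78.4), where the intervals cover counting error only. The gene was therefore sequenced, at a level above 58.7% and 59.9% of all protein-coding genes, of which only 38.3% were detected. The authors' posterior mean TPM was higher, at 0.93 (interval 0.571 to 1.40) and 1.07 (0.624 to 1.69). Of that mean, Socs3-201 held 70.7% and 66.4%, and the rest lay on 2 short models with 0 expected counts. By TPM Socs3 was thus below 1 in both libraries, and the posterior mean passed 1 in replicate 2 only with those models included. Cish transcripts outnumbered Socs3 transcripts 155-fold and 145-fold by TPM. Counting transcripts of at least 1000 bases, the ratios were 54.8 and 35.9.

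The promoter windows of Cish (chr9:107296409-107296708, plus strand) and Socs3 (chr11:117969317-117969616, minus strand) are shown because they were the 2 of the 12 windows available for 9 of the genes that held TTCNNNGAA, the STAT5 motif, which capitals mark. The motif reads the same on both strands and was counted once.
Cish promoter: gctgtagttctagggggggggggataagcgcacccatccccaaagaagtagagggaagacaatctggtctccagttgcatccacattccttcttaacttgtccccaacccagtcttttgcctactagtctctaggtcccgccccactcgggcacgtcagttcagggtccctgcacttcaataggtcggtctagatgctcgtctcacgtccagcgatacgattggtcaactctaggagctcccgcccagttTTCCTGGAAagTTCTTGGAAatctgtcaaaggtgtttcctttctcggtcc
Socs3 promoter: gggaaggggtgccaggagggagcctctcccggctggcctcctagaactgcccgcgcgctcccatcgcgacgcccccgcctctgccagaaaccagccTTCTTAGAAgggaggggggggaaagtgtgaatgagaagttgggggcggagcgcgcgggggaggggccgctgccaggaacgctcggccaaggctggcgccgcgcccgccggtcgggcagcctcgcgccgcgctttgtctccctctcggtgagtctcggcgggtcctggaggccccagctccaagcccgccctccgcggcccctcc
The Cish window held the motif at bases 1 and 12 from the RefSeq start site, and the Socs3 window held it at position -154. Of all 32851 windows, 8.30% held at least 1 such motif and 0.457% held 2 or more. Of the 4 feedback genes, Socs2 had no window and was not searched. Over the 12 windows, CACCC occurred in 9 and the GATA motif in 1. A window of this size leaves out any site farther away, and no match says only that the letters are not in it. RefSeq start sites need not be those used in these cells: the Cish-204 transcript starts at 107296710, just past the Cish window, and Cish-201 starts at 107296026, before it.

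**Figure D2:**
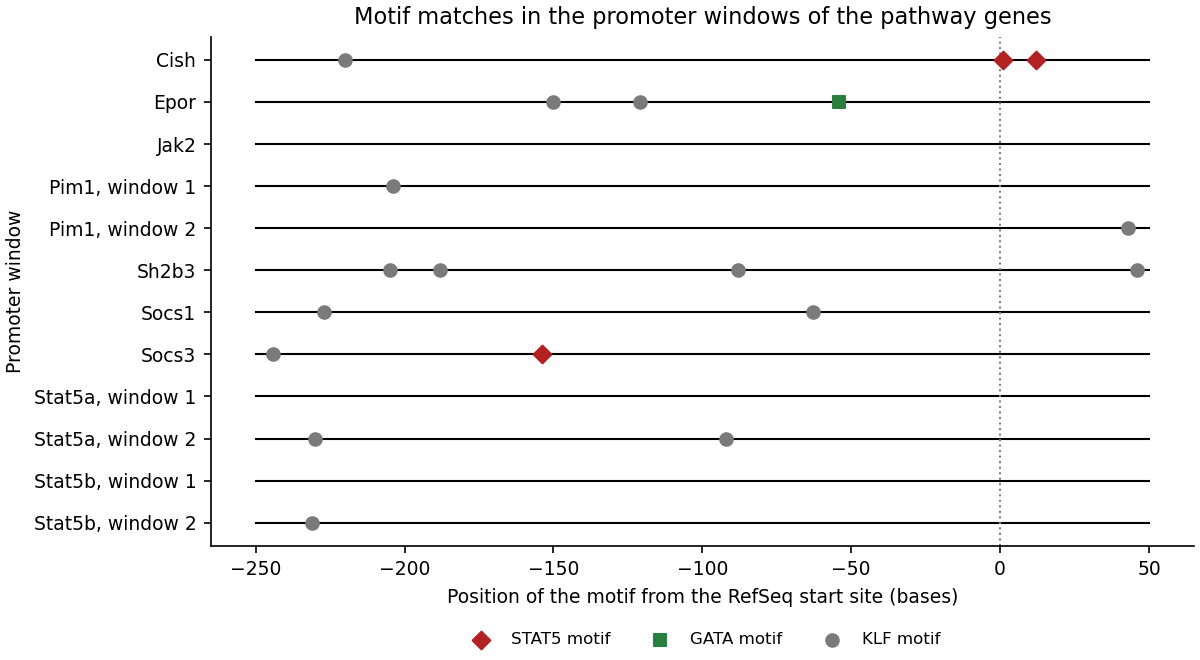
Positions of the STAT5 motif (red diamonds), the GATA motif (green squares) and the KLF motif (grey circles) in the 12 RefSeq promoter windows of 9 genes, in bases from the start site (dotted line). Both Cish STAT5 motifs lie at the start site, the Socs3 motif lies at -154, and the GATA motif occurs in the Epor window alone.

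The Cish level depended on which transcripts received the reads. By TPM the leading transcript was Cish-203, an incomplete model of 411 bases with annotation support level 5, the weakest, at 41.6% and 53.7% of the gene. By expected counts it held 9.62% and 16.8%, and Cish-204 (2742 bases) held 69.5% and 68.0%, against 29.7% and 22.3% of the TPM. Cish-205, a non-coding model of 371 bases, held 22.9% and 21.6% of the TPM and 4.46% and 5.76% of the counts. A short model needs few fragments for a high TPM, and the leading transcript was thus a different one by the 2 measures in both libraries.

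The Cish models differ around the middle of 3 exons, which has 221 bases (chromosome 9, 107299924 to 107300144). Cish-201, with 771 coding bases, keeps the exon whole, Cish-203 leaves it early and enters the next exon late, lacking 117 coding bases of Cish-201, and Cish-204 skips it and has 186 annotated coding bases. The junctions that tell them apart are shown, with the 20 bases after the junction in capitals, from GENCODE M21 on GRCm38, plus strand.
Cish-201 junction: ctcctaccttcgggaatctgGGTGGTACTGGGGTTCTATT
Cish-203 junction: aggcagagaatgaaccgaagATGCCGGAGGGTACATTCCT
Cish-204 junction: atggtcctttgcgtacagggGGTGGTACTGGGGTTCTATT
Cish-201 and Cish-204 enter the last exon at the same base, 107300368, but end at 107301987 and at 107302784. Models that hold the exon, in whole or in part, took 70.3% and 77.7% of the Cish TPM but 30.5% and 32.0% of the counts. Cish-201 itself, the longer coding model, held 4.47% and 1.55% of the TPM and 10.9% and 4.91% of the counts. The tables hold no reads across junctions, so these shares are the authors' estimates and not counts of spliced fragments. Cish also overlaps Gm17040 and Gm17041 on the other strand, which held at most 4 counts each in either library.

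The adaptor gene Sh2b3 and the target gene Pim1 were also abundant by TPM. Sh2b3 (ENSMUSG00000042594, chromosome 5, 121815488 to 121837646, minus strand), which encodes LNK, stood at a TPM of 149.7 in replicate 1 and 255 in replicate 2, from 12540 and 11984 counts, a mean of 202 ± 74.6 (SD, n = 2). Pim1 (ENSMUSG00000024014, chromosome 17, 29490753 to 29496112, plus strand), a survival kinase that STAT5 induces, stood at 56.3 and 90.4, from 7086 and 7970 counts, a mean of 73.4 ± 24.1 (SD, n = 2). Both were higher in replicate 2. Pim1 reads were all given to the 2638-base Pim1-201, the only Pim1 transcript quantified. An antisense gene that overlaps Pim1, Gm26885, held 8 and 6 counts.

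Most of the Sh2b3 TPM came from a fragment. Sh2b3-206, of 642 bases with an annotated end not found, took 61.0% and 70.8% of the TPM and 17.9% and 26.5% of the counts. The largest share of counts, 41.3% and 42.9%, went to Sh2b3-205 (4313 bases), which is annotated as a target of nonsense-mediated decay and held 16.4% and 13.7% of the TPM. The coding models Sh2b3-201 (2501 bases) and Sh2b3-202 (4195 bases) held 14.0% and 13.0%, and 8.48% and 2.34%, of the TPM. With models under 1000 bases left out, Sh2b3 stood at a TPM of 58.4 and 74.6. Sh2b3 overlaps 1006 bases of Atxn2 on the other strand, which held 6736 and 6601 counts, and the part of that overlap in the Sh2b3 counts was not tested.

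Socs2 showed the same split to a lesser degree. Socs2-201 (2222 bases) held 63.1% and 53.0% of the TPM and 88.9% and 84.5% of the counts. Of its short models, Socs2-205 (623 bases) took 23.7% and 28.1%, Socs2-210 (479 bases) 9.99% and 12.7%, and Socs2-208 (497 bases) 1.87% and 5.16% of the TPM. Without short models Socs2 stood at a TPM of 37.9 and 31.0. Across the 10 genes the tables listed 43 transcripts, of which 20 held at least 5% of their gene's TPM in a library. Of these 20, 7 were under 1000 bases, 5 of them with an end not found. GENCODE M21 holds 12 more transcripts of the 10 genes that were not among the 43.

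**Figure D3:**
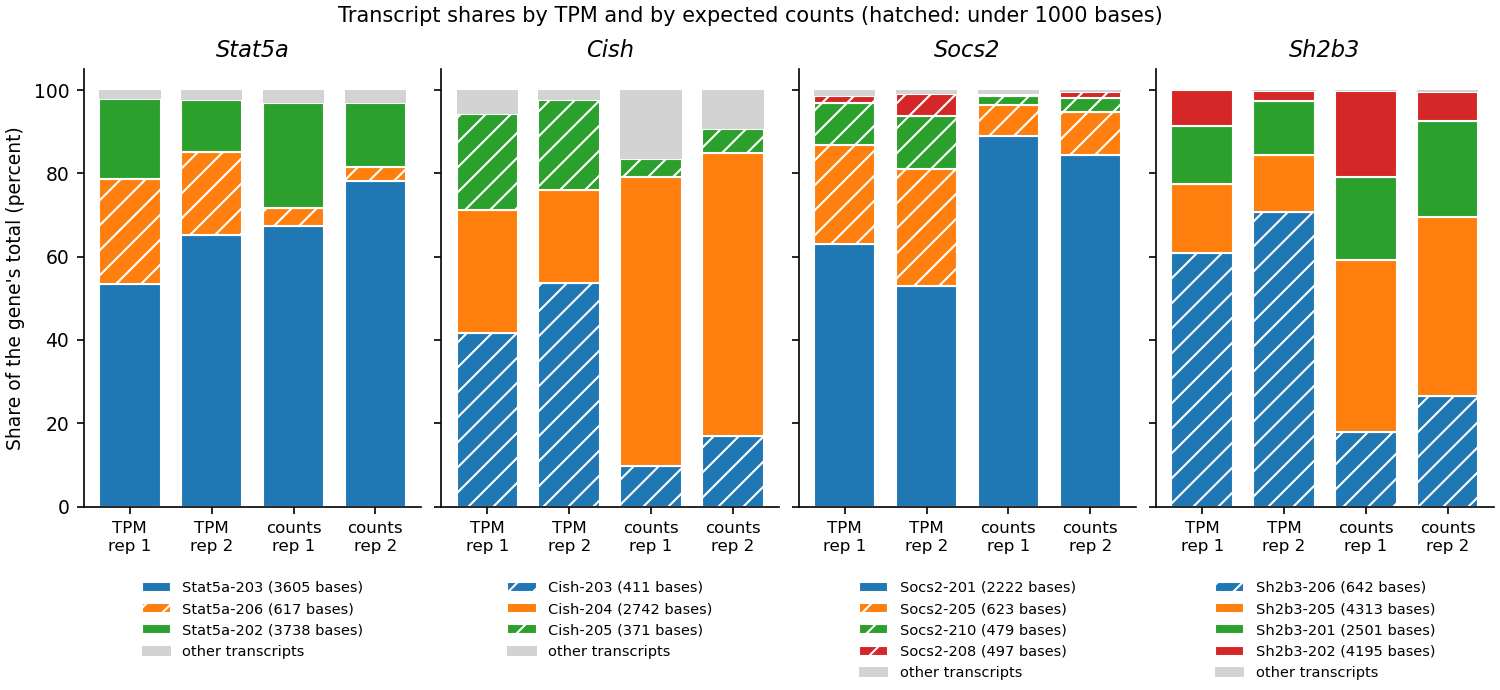
Transcript shares, in percent, of the TPM and of the expected counts of Stat5a, Cish, Socs2 and Sh2b3 in replicates 1 and 2, with each named transcript in a colour and transcripts under 1000 bases hatched. The hatched share is 64.5% and 75.3% of the Cish TPM and 14.1% and 22.6% of its counts, and 61.0% and 70.8% of the Sh2b3 TPM and 17.9% and 26.5% of its counts.

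The order of the genes by TPM was Sh2b3, Epor, Cish, Pim1, Stat5b, Socs2, Socs1, Stat5a, Jak2 and Socs3. Sh2b3 and Epor were not separated, since Epor was higher in replicate 1 and Sh2b3 in replicate 2, with Sh2b3 to Epor ratios of 0.814 and 1.67. Pim1 and Stat5b overlapped as well, as did Socs1 and Stat5a. The other neighbours in the order did not overlap. By transcripts of at least 1000 bases, a measure added after the data had been seen, Epor came first without overlap. Pim1, Sh2b3 and Stat5b followed with overlapping values, then Socs2, Cish and Socs1, again overlapping, then Stat5a, Jak2 and Socs3. The places of Epor above Stat5b, of Stat5b above Stat5a, and of Jak2 and Socs3 at the low end were the same by both measures. The lead of Cish over Socs2, 1.68-fold and 1.79-fold by TPM, was 0.941 and 0.832 by long transcripts, and its lead over Socs1, 4.67-fold and 2.92-fold, was 1.66 and 0.719.

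Beside their relatives, the genes of the pathway differed in how far they led their family. Stat5b held 44.0% and 42.3% of the TPM of the 7 STAT genes, the largest share in both libraries, and 52.8% and 54.2% by long transcripts. Pim1 held 80.2% and 86.2% of the PIM kinases, with Pim2 at a TPM of 13.9 and 14.5 and Pim3 at 0 and 1 counts. Cish held 46.9% and 43.6% of the 8 genes of the SOCS family, but 28.1% and 19.5% by long transcripts. Jak2 was the lowest of the 4 JAK genes, at 2.24% and 1.72% of their TPM and 11.9% and 13.1% by long transcripts. Jak1, the kinase of interferon and gp130 receptors, stood at a TPM of 391 and 495, of which 34.0 and 22.2 came from transcripts of at least 1000 bases. Jak3 stood at 21.8 and 27.1 and Tyk2 at 17.6 and 12.9, each above Jak2 in both libraries. Sh2b3 was above Sh2b1, which stood at 80.8 and 69.9, by all transcripts, but below it in replicate 1 by long transcripts.

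**Figure D4:**
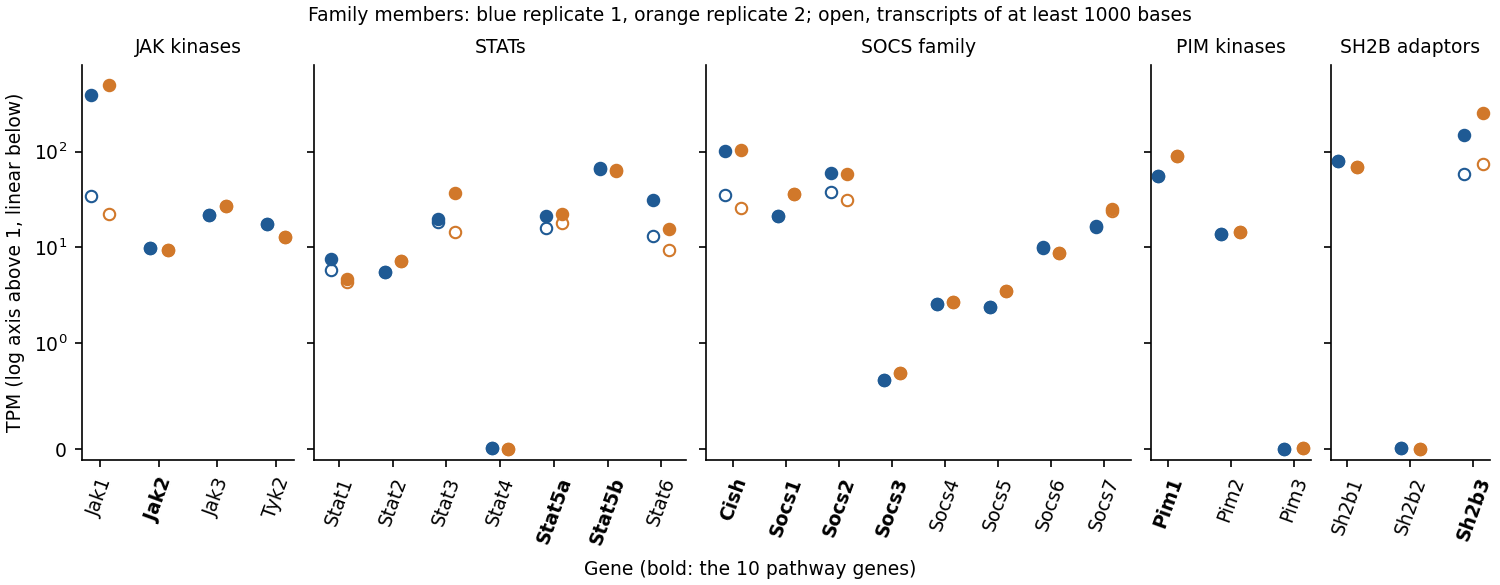
TPM of the JAK, STAT, SOCS, PIM and SH2B genes (log axis above 1, linear below), with replicate 1 in blue and replicate 2 in orange, filled for all transcripts and open for those of at least 1000 bases; names of the 10 pathway genes are bold. Jak1 stands at 391 and 495 by all transcripts but at 34.0 and 22.2 by long ones, and Jak2 is the lowest of its family by both.

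Other parts of the pathway were described by lists of known members, of which 68 of 70 names matched and 51 (75.0%) were detected. Among the ligands, 1 of 4 was detected, oncostatin M (Osm), at a TPM of 2.08 and 2.65. Epo, Thpo and Kitl had 0 counts in both libraries, which allows up to 3 counts each. Of 11 receptors that share JAK2 or a chain of such a receptor, 5 were detected, led by mean TPM by the beta common chain Csf2rb at a TPM of 211 and 329 and the interleukin 3 receptor chain Il3ra at 26.6 and 24.6. In replicate 2 the interferon gamma receptor chain Ifngr2, at 16.45 and 28.17, was above Il3ra. Csf2rb was thus of the order of Epor, and above it in both libraries.

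Of 12 adaptors and effectors 11 were detected, led by Grb2 at 119 and 125 and Shc1 at 114 and 83.2, which link receptors to RAS. By long transcripts Shc1 stood at 23.7 and 35.4, below the adaptor Crkl at 30.65 and 44.18. Of 11 phosphatases and ubiquitin ligase parts 10 were detected. The leading ones were Elob, the elongin B that SOCS proteins bind, at 930 and 281, and Inpp5d, the SHIP1 phosphatase, at 171 and 317. The libraries disagreed on the order of these. By long transcripts Inpp5d stood at 129 and 108, and Elob at 0 in both libraries. All of the Elob TPM thus came from transcripts under 1000 bases, which that measure leaves out. Of 4 PIAS genes, which restrain STATs, 3 were detected, led by Pias4 at 73.9 and 103.75 and Pias3 at 12.1 and 11.8.

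Of 10 matched genes known as STAT5 targets in erythroid cells, 8 were detected. By mean TPM the 2 most abundant were cyclin D3 (Ccnd3) at 690.3 and 622 and Myc at 594 and 640, and the list's median was 71.3. The libraries differed in this order, since the survival gene Mcl1 stood at 381 in replicate 1 and at 662, the highest of the list, in replicate 2, though at 34.35 and 63.37 by long transcripts. Bcl6 and Serpina3g had 0 counts in both libraries, which allows up to 3 counts each. Without an untreated sample to set them against, none of these levels is shown to depend on STAT5. Of the other families, 4 of 5 STATs were detected, led by Stat3 at 19.8 and 37.3 and Stat6 at 31.5 and 15.6, and all 4 other SOCS genes were, led by Socs7 at 16.8 and 25.2 and Socs6 at 10.15 and 8.79.

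The libraries repeated each other well for some genes of the pathway and not for others. The SD was a median of 3.80% of the mean TPM over the 9 detected genes, beside 17.6% over the 8219 detected protein-coding genes. It ran from 1.59% for Socs2 to 36.8% for Sh2b3, with Pim1 at 32.9%, Socs1 at 35.5% and Epor at 13.0%. For Socs3 it was 7.23%. These values use all transcripts. By transcripts of at least 1000 bases the SD was a larger part of the mean for Cish (30.7 ± 6.94), Socs2 (34.5 ± 4.84) and Stat5a (16.9 ± 1.34). It was a smaller part for Sh2b3 (66.5 ± 11.4) and Stat5b (64.5 ± 2.03). Neither median was recomputed by that measure, so the low median holds for all transcripts only. An exact binomial test of the counts of replicate 1 against replicate 2, with Benjamini-Hochberg adjustment over 11285 genes, called 1275 genes (11.3%) whose adjusted p lay below 0.05 and whose counts differed 2-fold or more. The test is about the libraries and not about conditions, and its error is counting noise alone.

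Of the 10 genes, 0 were called by this binomial test, 7 had an unadjusted p under 0.05, and edgeR's exact test with the common dispersion called 0, with 0 at an unadjusted p under 0.05. That edgeR test called 72 genes (0.638%). Its dispersion was estimated from the same 2 libraries taken as 1 group, so the difference under test widened its own error. Few calls could arise in this way, and no conclusion is drawn from their absence. Without the minimum fold, the binomial test called 7 of the 10 genes and 7665 genes in all (67.9%), so counting noise alone was exceeded by most genes. By scaled counts Pim1, Sh2b3, Socs1 and Stat5a were higher in replicate 2, and Cish, Epor and Socs2 in replicate 1. By TPM, Cish was the higher in replicate 2, at 100.5 in replicate 1 and 105 in replicate 2. On the log2 scale, as replicate 1 over replicate 2, the ratio was -0.85 for Socs1, -0.78 for Pim1 and -0.55 for Sh2b3, while the other 7 genes lay between -0.24 and 0.22. Over all genes tested 39.7% had a log2 ratio of at least 0.5 in size. Jak2 at -0.02 and Stat5b at -0.03 changed sign when total counts set the scale, at 0.17 each, a scaling that put the median of all genes at 0.23.

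**Figure D5:**
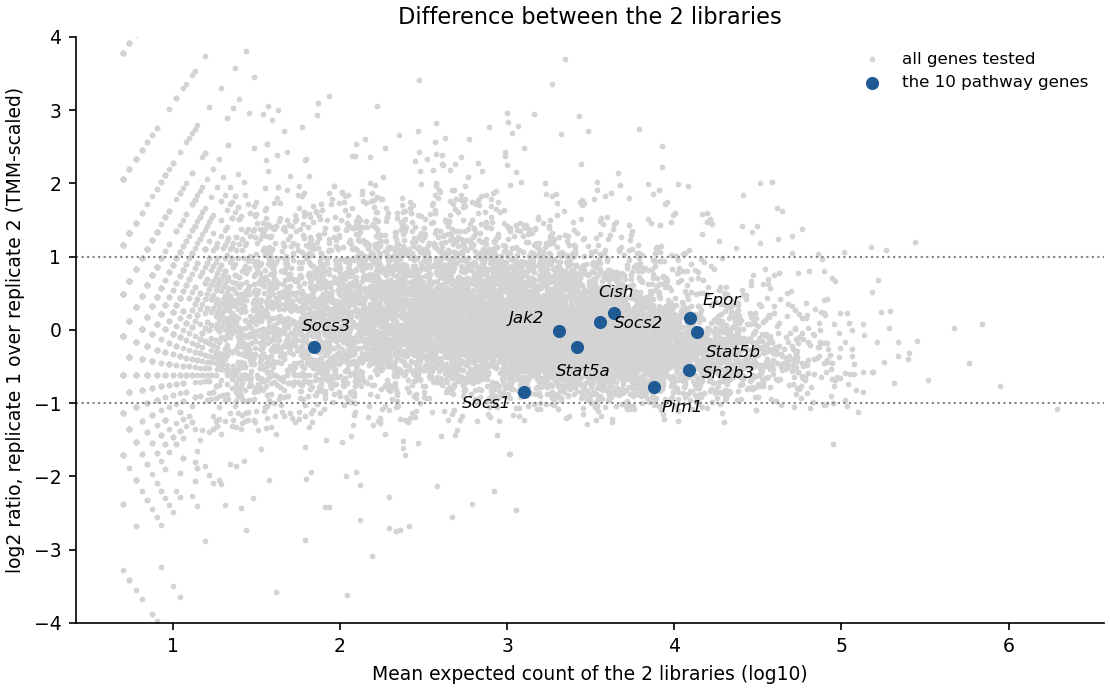
Log2 ratio of replicate 1 over replicate 2, on TMM-scaled expected counts, against the log10 of the mean count, for all 11285 genes tested (grey) and the 10 pathway genes (blue); dotted lines mark a fold of 2, and 56 genes lie outside the axis. Socs1, Pim1 and Sh2b3 are the lowest of the 10, at -0.85, -0.78 and -0.55, and none passes a dotted line.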

How the data were processed

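PolyA RNA was sequenced in 2 libraries of 1 group. Per the labels and the notes with the files, the authors deposited gene and transcript tables on mm10 with GENCODE M4; the aligner, the quantifier and any use of strand are not given in the sources used here. Expected counts, as the authors deposited them, are estimates that need not be whole and were rounded for the tests. The deposited TPM values are scaled to effective length and to a common total, and the deposited FPKM values served as an alternative. Posterior means, their SDs and TPM intervals are the authors' own, and the level of those intervals is not stated. The authors' transcript tables also give each transcript's percent of its gene, which was recomputed here from TPM.

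Names and positions came from GENCODE M21 on GRCm38, the same assembly as mm10. Of 43346 gene rows 42462 matched, and the rest held 0.248% and 0.257% of the counts. A further 26248 numbered rows, with 2 and 0 counts, and 97 spike-in rows, with 0, were left out. Promoter sequences are RefSeq's (GRCm38.p6); 9 of 10 genes matched.

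Levels are TPM per library with the SD (n = 2); limits at 0 are 3 counts and cover counting error only. Libraries were compared with an exact two-sided binomial test on TMM-scaled sizes (edgeR 4.0.16), for genes with at least 10 counts, and ratios carried a prior count of 0.5. The binomial procedure was tested on simulated data with counting noise alone. That simulation does not cover the wider spread seen between these libraries. The 10 genes and the lists were chosen with earlier results of these data known. Named were the 10 genes, their transcripts with at least 5% of the gene's TPM in a library, and the most abundant members of each list; Epo, Thpo, Kitl, Bcl6, Serpina3g, Pim3, Mcl1, Ifngr2, Crkl, Cish-201, the cell type markers and the overlapping neighbours were named after their values were seen.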

Additional observations from a re-analysis of the deposited data

How the results depend on the processing

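The count of 9 detected genes stayed at 9 with a minimum TPM of 5, with posterior mean TPM, with FPKM, with long transcripts and with either library left out, and was 10 at a minimum of 0.5. The Stat5a share of the pair, 25.0% ± 1.31 (SD, n = 2), was 16.2% by CPM, which ignores length, and 20.8% by transcripts of at least 1000 bases, and ran from 24.0% to 25.9% with either library left out. The Cish share of the 4 feedback genes, 53.7% ± 1.89, was 46.5% by CPM and 32.4% by long transcripts, and ran from 52.4% to 55.1% with either library left out. The 1275 genes called between the libraries became 7665 with no minimum fold and 1605 with total counts. They were 1340 with no filter on low counts, 1270 with posterior mean counts and 1258 with DESeq2 size factors. With edgeR's exact test they were 72. That test adds a dispersion to counting noise, and the dispersion was estimated from the same 2 libraries. Of the 10 genes, 7 were called with no minimum fold and 0 under the others. By long transcripts 4 of 10 levels moved by more than the SD between libraries, and by expected counts 14 of 20 transcript shares did. Of the levels, 8 moved by CPM, 7 by FPKM and 6 by TPM rescaled over nuclear protein-coding genes, each of which is on another scale. The measure by long transcripts was chosen after seeing the data, and it also leaves out transcripts that are short in full. No paired analysis was possible because there is 1 group. With 2 libraries an SD is itself poorly known, and intervals cover counting error only.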
